A study of Mus musculus with 10 samples.

Results

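The transcripts described here are those of 38 genes of glucose metabolism in mouse liver, covering gluconeogenesis, glycogen turnover, sugar entry, glycolysis and lactate handling. They were chosen by gene symbol from these pathways, and all 38 were found among the 23056 symbols of the count table. Liver RNA was sequenced from 4 livers labelled as Ifrd1 knockouts (genotype IFRD1-KO, called KO here) and 6 wild-type (WT) livers. All mice had undergone partial hepatectomy, the surgical removal of the left lateral and median lobes, and the remaining liver was taken 12 hours later. Ifrd1 encodes a transcriptional co-regulator. Whether the knockout covered all cells, and the strain, sex and age, are not given in the labels. The labels number the libraries without naming an animal for each, so a p-value here measures the spread between these libraries. No unoperated liver was analysed here, and every value compares genotypes after surgery.

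The liver keeps blood glucose steady by storing glucose as glycogen, releasing it from glycogen, and making it from lactate, glycerol and amino acids. Gluconeogenesis and glycolysis share most of their enzymes and differ at a few steps that run in one direction only, where opposing enzymes such as fructose bisphosphatase and phosphofructokinase are set by hormones and by transcription. After partial hepatectomy the remnant has to supply glucose for the whole body while its hepatocytes prepare to divide, and a fall in blood glucose soon after the operation is a known feature of the procedure in rodents.

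Total counts per library lay between 12307446 and 17098012. Ifrd1 was at most 22.6 CPM (read counts scaled to library size by TMM) in KO livers, against at least 40.2 CPM in WT livers (log2 fold change -1.59, SE 0.23, edgeR adjusted p = 0.0258). Hepatocyte markers were abundant throughout, with a sum over 7 markers of 48987 to 58459 CPM in KO livers and 36630 to 80346 CPM in WT livers, lowest in WT replicate 4 and highest in WT replicate 2. The sum hides members of opposite sign. Ass1 was lower in KO (log2 fold change -0.96, edgeR adjusted p = 0.0620, DESeq2 adjusted p = 0.00422). Apoa1 had the higher mean in KO (log2 fold change 0.53, edgeR adjusted p = 0.131, DESeq2 adjusted p = 0.0594). WT livers were spread widely on the first principal component of expression, and WT replicate 4 lay at -40.1 there, beside the KO livers at -46.8 to -42.2 and away from the other WT livers at 11.8 to 79.3. The results below are therefore given with and without that library where it changes them. It was singled out on these same expression values, for lying beside the KO livers. The p-values without it follow that choice and are not separate support for a difference. Leaving it out raised the share of all genes called by edgeR from 1.33% to 21.4%.

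None of the listed genes was called different between KO and WT livers by edgeR with all libraries. Of the 38, 37 passed the filter on low counts, and 0 were called in edgeR's quasi-likelihood test at an adjusted p under 0.05, where 1.33% of all 13688 genes tested were called (0.563% higher and 0.767% lower in KO). P-values were adjusted by Benjamini-Hochberg over all genes tested, here and below. At an unadjusted p under 0.05 there were 10 of the 37 (27.0%), 3 higher and 7 lower in KO, against 26.0% of all genes tested (11.6% higher and 14.4% lower). DESeq2 called 6 genes, all lower in KO (Aldoa, Creb3l3, Gbe1, Khk, Pkm and Ppp1r3g), of the 37 to which it gave an adjusted p (16.2%), against 10.3% of all genes (3.66% higher and 6.60% lower). Limma-voom called 1, Ppp1r3c, which was higher, against 2.32% of all genes (1.69% higher and 0.636% lower), and with sample weights it called 4 higher and 6 lower, against 19.2% of all genes (10.3% higher and 8.93% lower). With replicate numbers as a block edgeR called 0, against 0.00731% of all genes, which was 1 gene lower in KO. Without WT replicate 4, edgeR called 11 of 37 (29.7%), against 21.4% of all genes (10.5% higher and 10.9% lower). Of these, 4 were higher in KO (Ppp1r3b, Ppp1r3c, Pfkfb1 and Pklr) and 7 lower (Creb3l3, Gbe1, Khk, Aldoa, Pgk1, Pkm and Slc16a3). None was called when any other library was left out. The median log2 fold change of the 37 was -0.099, with 16 above and 21 below 0, where the median over all genes tested was -0.016.

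**Figure D1:**
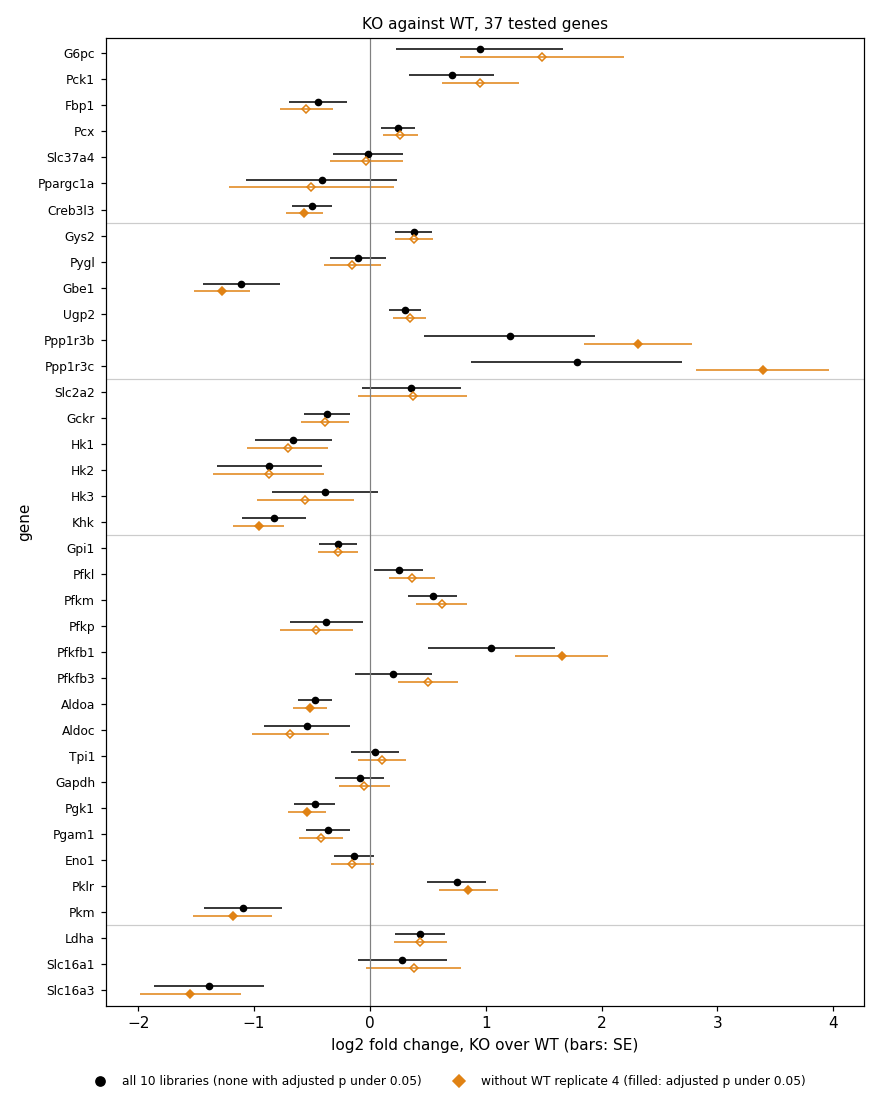
Log2 fold change of KO over WT (x axis, bars show the standard error) for the 37 tested genes, in blocks by role from gluconeogenesis at the top to lactate at the bottom, with all 10 libraries (black circles) and without WT replicate 4 (orange diamonds, filled where the adjusted p was under 0.05). Ppp1r3c had the highest value with all libraries, 1.78, and 3.39 without WT replicate 4, and Slc16a3 the lowest, -1.39.

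Promoters of 5 genes are shown because their transcripts carry the patterns described below: Pck1 and G6pc, which were low in the same WT livers, Ppp1r3c, whose levels spread most widely in WT, Khk, among those with lower values in KO, and Ldha, among the most abundant listed transcripts per length. They are RefSeq promoters on GRCm38.p6, from 250 bases before to 50 bases after the start, given 5′ to 3′ on the gene's strand. Capitals mark matches on either strand to 5 motifs. TGACG is the core of the cAMP response element. CACGTG is the E-box, part of the carbohydrate response element. The core of the hypoxia response element is ACGTG, which also lies within every E-box. The forkhead motif is TGTTTAC. Part of the glucocorticoid response element is TGTTCT.
Pck1, chr2:173152823-173153122, plus strand: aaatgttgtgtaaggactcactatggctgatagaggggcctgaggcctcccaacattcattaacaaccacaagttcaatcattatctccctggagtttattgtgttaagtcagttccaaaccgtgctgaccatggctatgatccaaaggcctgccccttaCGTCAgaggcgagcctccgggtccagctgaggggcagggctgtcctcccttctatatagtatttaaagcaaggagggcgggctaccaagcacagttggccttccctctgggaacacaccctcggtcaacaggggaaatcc
G6pc, chr11:101367466-101367765, plus strand: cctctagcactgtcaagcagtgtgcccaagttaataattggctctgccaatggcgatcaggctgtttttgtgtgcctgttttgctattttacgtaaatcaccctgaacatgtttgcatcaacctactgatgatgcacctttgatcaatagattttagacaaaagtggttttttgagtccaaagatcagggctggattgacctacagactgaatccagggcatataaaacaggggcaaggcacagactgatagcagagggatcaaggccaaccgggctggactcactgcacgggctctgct
Ppp1r3c, chr19:36736555-36736854, minus strand: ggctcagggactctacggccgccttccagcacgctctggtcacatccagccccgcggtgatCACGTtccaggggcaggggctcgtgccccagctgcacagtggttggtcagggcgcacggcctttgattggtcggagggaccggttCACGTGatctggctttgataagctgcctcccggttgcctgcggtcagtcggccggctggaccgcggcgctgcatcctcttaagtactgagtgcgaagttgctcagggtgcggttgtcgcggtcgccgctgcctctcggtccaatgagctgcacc
Khk, chr5:30921309-30921608, plus strand: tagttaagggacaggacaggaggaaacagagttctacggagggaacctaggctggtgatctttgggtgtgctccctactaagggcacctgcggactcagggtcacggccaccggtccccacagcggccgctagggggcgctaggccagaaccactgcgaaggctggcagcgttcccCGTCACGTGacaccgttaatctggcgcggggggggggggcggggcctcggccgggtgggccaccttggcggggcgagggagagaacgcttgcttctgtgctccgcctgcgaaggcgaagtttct
Ldha, chr7:46845554-46845853, plus strand: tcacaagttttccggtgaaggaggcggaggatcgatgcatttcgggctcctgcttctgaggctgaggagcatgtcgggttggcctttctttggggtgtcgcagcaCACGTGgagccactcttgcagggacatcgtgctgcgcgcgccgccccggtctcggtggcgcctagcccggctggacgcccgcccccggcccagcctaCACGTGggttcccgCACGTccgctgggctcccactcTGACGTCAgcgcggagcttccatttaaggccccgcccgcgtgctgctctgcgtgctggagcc
The Pck1 window held the cAMP element core, and the Khk window held that core overlapping an E-box. The Ppp1r3c window held 1 E-box and a separate hypoxia core. The Ldha window held 2 E-boxes, a separate hypoxia core and the cAMP element core on both strands. A second Ldha window in RefSeq, chr7:46846832-46847131, not shown, held only 1 cAMP element core. The G6pc window held none of the letters searched.

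RefSeq listed 57 promoters for 36 of the 38 genes. The ACGTG core was in 25 of the 57 (43.9%), against 19.6% of all 32851 promoters, and CACGTG was in 7 (12.3%), against 7.15%. TGACG was in 15 (26.3%), against 20.8%, TGTTCT in 9 (15.8%), against 19.0%, and TGTTTAC in 1 (1.75%), against 3.65%. The listed promoters had a mean G+C content of 58.7%, against 53.8% in all promoters, and several genes contributed more than 1 window. These letters describe the windows and do not show binding.

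Per length of transcript, the listed genes spanned a wide range. Pck1 was the most abundant, at 1329 ± 371 TPM (reads per exon length, scaled to library) in KO and 798 ± 401 TPM in WT (SD, n = 4 KO and 6 WT, as for each mean ± SD below). Averaged over all 10 libraries, Ldha (527 TPM), Fbp1 (500.4 TPM), Creb3l3 (287 TPM) and Khk (284 TPM) followed. Fbp1 and Ldha, and likewise Creb3l3 and Khk, lay closer together than their spread among libraries. The order of Ldha and Fbp1 differed by genotype, with Ldha at 624 TPM and Fbp1 at 414 TPM in KO, and Ldha at 463 TPM and Fbp1 at 558 TPM in WT. The least abundant were Hk2 (0.328 TPM), Slc16a3 (0.412 TPM), Pfkp (0.438 TPM), Hk1 (0.564 TPM), Ppp1r3g (0.667 TPM) and Hk3 (0.685 TPM), most of them isozymes and transporters better known from other tissues. The levels in CPM below compare libraries for 1 gene and do not rank genes.

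**Figure D2:**
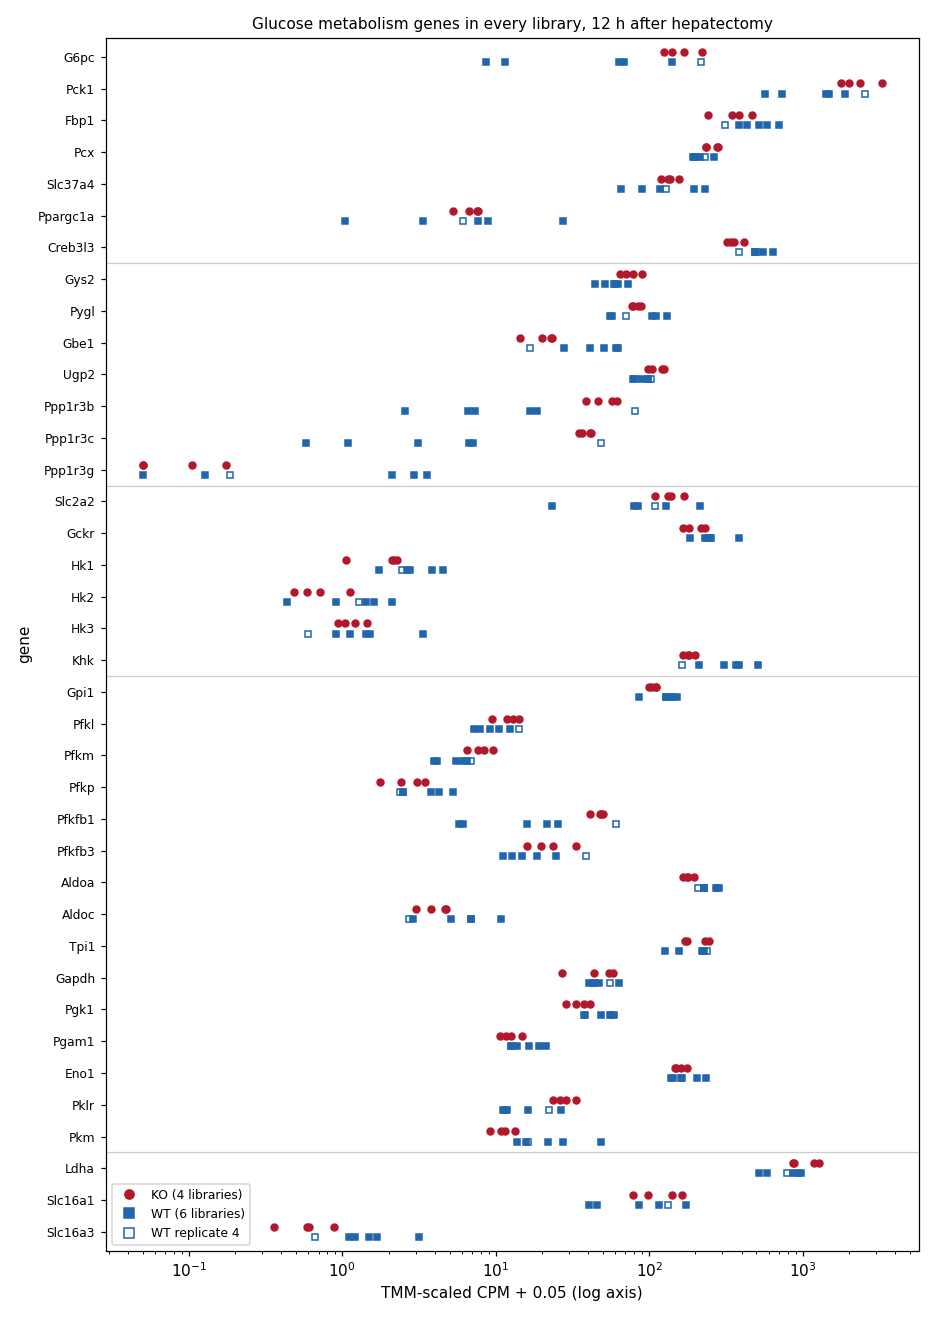
TMM-scaled CPM, plotted as CPM + 0.05 on a log axis, of each of the 38 genes (rows, in blocks by role: gluconeogenesis, glycogen, sugar entry, glycolysis and lactate) in every KO library (red circles) and WT library (blue squares, open for WT replicate 4). In Ppp1r3c and Ppp1r3b the open square stands at 48.3 and 80.8 CPM beside the KO circles while the other WT squares lie at most at 7.03 and 18.6 CPM.

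Among the gluconeogenic genes, G6pc and Pck1 had higher mean levels in KO and varied less there than in WT, and neither was called. Gene positions are those of GENCODE M21 on GRCm38. G6pc (chromosome 11, 101367561 to 101377903, plus strand), the catalytic subunit of glucose-6-phosphatase that releases free glucose, was at 125, 140.1, 169 and 220.3 CPM in the KO livers. Its WT levels had a low of 8.53, a median of 66.1 and a high of 216 CPM, a 25.3-fold range against 1.76-fold in KO. WT replicates 1 and 2 were lowest (8.53 and 11.5 CPM), and WT replicates 3 and 4 lay within the KO range. The log2 fold change was 0.95 (SE 0.72, edgeR adjusted p = 0.426).

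Pck1 (chromosome 2, 173153048 to 173159273, plus strand), the cytosolic phosphoenolpyruvate carboxykinase that commits oxaloacetate to glucose, was at 2013, 1770.2, 2353 and 3266 CPM in KO. In WT its lowest, median and highest levels were 566, 1452 and 2559 CPM. WT replicates 1 and 2 were again lowest, and WT replicates 3 and 4 overlapped the KO livers. Its log2 fold change was 0.71 (SE 0.37, edgeR adjusted p = 0.244, and 0.0584 without WT replicate 4).

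Fbp1, fructose-1,6-bisphosphatase, ran the other way, at 465, 241, 347 and 386 CPM in KO, against a lowest, median and highest of 313, 477 and 703 CPM in WT. Of the WT livers, replicates 2, 3 and 5 were above every KO liver and the other WT livers lay within the KO range (log2 fold change -0.45, SE 0.25, edgeR adjusted p = 0.272). Pcx, pyruvate carboxylase, was at 256 ± 25.1 CPM in KO and 216 ± 26.6 CPM in WT. Slc37a4, the transporter that carries glucose 6-phosphate into the endoplasmic reticulum, was at 136 ± 14.9 CPM in KO and 138 ± 62.9 CPM in WT. Neither was called, with edgeR adjusted p of 0.306 and 0.980.

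Of the regulators in this group, Creb3l3 encodes a hepatocyte membrane-bound transcription factor induced by fasting. It was at 343, 322, 356 and 415 CPM in KO, against 383, 493 and 637 CPM at the lowest, median and highest in WT. Only WT replicate 4, the lowest WT liver, overlapped the KO range. The log2 fold change was -0.50 (SE 0.17, edgeR adjusted p = 0.103, DESeq2 adjusted p = 0.0275). Ppargc1a, the co-activator of gluconeogenic genes, was at 5.24 to 7.59 CPM in KO and 0.991 to 27.3 CPM in WT, and its WT high came from WT replicate 5. The direction of its fold change depended on that library (log2 fold change -0.41 with it and 0.33 without it).

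In the glycogen group, the regulatory subunits of glycogen phosphatase differed most between livers. These subunits bring protein phosphatase 1 to glycogen, where it activates glycogen synthase and inactivates phosphorylase. Ppp1r3c (chromosome 19, 36731731 to 36736653, minus strand) was at 41.8, 36.3, 34.6 and 41.1 CPM in KO. The WT livers were at 3.04, 0.529, 7.03, 48.3, 1.04 and 6.65 CPM in replicates 1 to 6. WT replicate 4 was above every KO liver and the other 5 WT livers were below all of them. Its log2 fold change was 1.78 (SE 0.91, edgeR adjusted p = 0.239) with all libraries and 3.39 (edgeR adjusted p = 0.00400) without WT replicate 4. Limma-voom on all libraries gave an adjusted p of 0.0477, and DESeq2 gave none.

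Ppp1r3b (chromosome 8, 35375739 to 35388139, plus strand), the subunit known as the liver form, likewise had WT replicate 4 above every KO liver and the other WT livers below all of them. It was at 38.7, 46.4, 57.2 and 61.9 CPM in KO, and at 7.27, 2.50, 16.6, 80.8, 6.56 and 18.6 CPM in WT replicates 1 to 6. The log2 fold change was 1.21 (SE 0.74, edgeR adjusted p = 0.322) and, without WT replicate 4, 2.31 (edgeR adjusted p = 0.00784). Ppp1r3g, a further subunit linked in mouse to fasting and feeding, did not pass the filter. It had 1, 0, 0 and 2 counts in KO, against 53, 38, 1, 2, 24 and 0 counts in WT replicates 1 to 6. WT replicates 3, 4 and 6 were thus as low as the KO livers (DESeq2 adjusted p = 0.0378).

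The enzymes of glycogen synthesis and breakdown varied less. Gys2, liver glycogen synthase, was at 70.6, 78.9, 64.6 and 89.2 CPM in KO, against a lowest, median and highest of 44.5, 59.5 and 73.0 CPM in WT. WT replicate 5 alone lay inside the KO range (log2 fold change 0.38, SE 0.16, edgeR adjusted p = 0.159). Pygl, liver glycogen phosphorylase, was at 84.7, 78.7, 77.4 and 88.1 CPM in KO, against 55.5, 87.6 and 131 CPM at the lowest, median and highest in WT. Its WT values lay on both sides of the KO range (edgeR adjusted p = 0.828). Ugp2, which makes UDP-glucose for glycogen, was at 112 ± 13.0 CPM in KO and 90.8 ± 10.5 CPM in WT (edgeR adjusted p = 0.195).

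Gbe1 (chromosome 16, 70313949 to 70569716, plus strand), the glycogen branching enzyme, had the smallest p of the list in edgeR with all libraries. It was at 23.1, 22.8, 19.8 and 14.3 CPM in KO and at 28.0, 60.6, 41.0, 16.6, 62.8 and 50.3 CPM in WT replicates 1 to 6. WT replicate 4 again stood within the KO range and the other WT livers above it. Its log2 fold change was -1.11 (SE 0.33, edgeR adjusted p = 0.0817). DESeq2 gave an adjusted p of 0.0174, and edgeR 0.00414 without WT replicate 4.

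**Figure D3:**
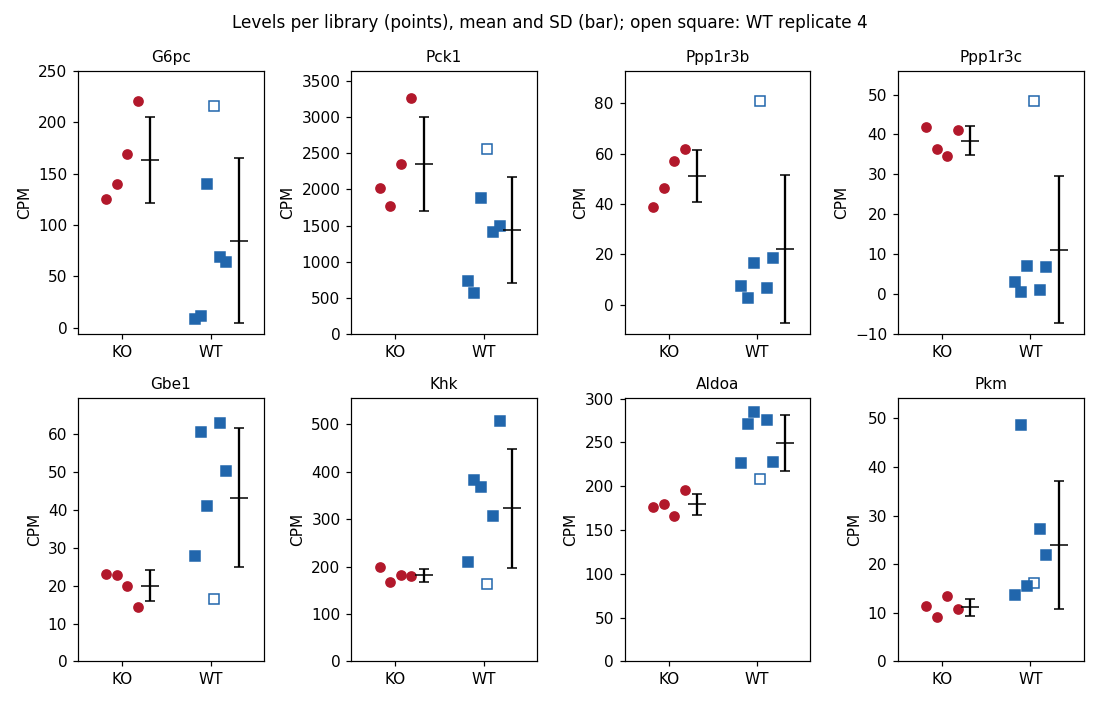
CPM of 8 genes in each liver (KO, red circles; WT, blue squares, open for WT replicate 4), with the mean and SD of each group as a black bar. In the upper row WT levels spread from below to within or above the KO levels, as for G6pc at 8.53 to 216 CPM. In the lower row most WT livers lie above the KO livers, and Aldoa and Pkm do not overlap between the groups.

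Among genes of sugar entry, Slc2a2 encodes GLUT2, the main hepatocyte glucose transporter. It was at 109.7, 168, 139 and 132 CPM in KO, against a lowest, median and highest of 23.2, 96.7 and 215 CPM in WT. WT replicate 1 was lowest and WT replicate 6 highest (edgeR adjusted p = 0.626). Gckr, a nuclear regulatory protein of glucose phosphorylation, was at 199 ± 31.2 CPM in KO and 257 ± 66.1 CPM in WT (edgeR adjusted p = 0.264).

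Khk (chromosome 5, 30921431 to 30931248, plus strand), the ketohexokinase that starts fructose metabolism, was at 199.9, 167, 182 and 179 CPM in KO. The WT livers were at 163, 337 and 508 CPM at the lowest, median and highest. The lowest was WT replicate 4, and the next, WT replicate 1 at 209.9 CPM, lay just above the KO livers. Its log2 fold change was -0.83 (SE 0.28, edgeR adjusted p = 0.09995, DESeq2 adjusted p = 0.0389), and -0.96 without WT replicate 4 (edgeR adjusted p = 0.0105).

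Hk1, Hk2 and Hk3, hexokinases that trap glucose in the cell, were low. Hk2, the insulin-responsive muscle form, was at 0.662, 0.539, 1.08 and 0.435 CPM in KO, against a lowest, median and highest of 0.387, 1.30 and 2.04 CPM in WT. These values rest on 40 counts in KO and 99 counts in WT, and the groups overlapped (log2 fold change -0.87, SE 0.45, edgeR adjusted p = 0.245). Hk1 was at 1.85 ± 0.568 CPM in KO and 2.93 ± 1.01 CPM in WT, and Hk3, the leukocyte form, at 1.10 ± 0.219 CPM in KO and 1.44 ± 0.984 CPM in WT. Neither was called.

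In the upper part of glycolysis, Pfkl, the liver phosphofructokinase that commits glucose to breakdown, was at 12.9, 11.8, 14.2 and 9.45 CPM in KO. Its WT lowest, median and highest were 7.19, 9.75 and 14.1 CPM, with overlapping ranges (log2 fold change 0.25, SE 0.21, edgeR adjusted p = 0.484). Pfkm, the muscle form, was at 7.97 ± 1.34 CPM in KO and 5.46 ± 1.23 CPM in WT (edgeR adjusted p = 0.140), and Pfkp, the platelet form, at 2.62 ± 0.737 CPM in KO and 3.39 ± 1.18 CPM in WT. Gpi1, glucose-6-phosphate isomerase, was at 107 ± 5.41 CPM in KO and 129 ± 23.0 CPM in WT, and was not called.

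Of the bifunctional enzymes that set fructose 2,6-bisphosphate, the signal favouring glycolysis over gluconeogenesis, Pfkfb1 and Pfkfb3 were listed. Pfkfb1 (chromosome X, 150588229 to 150643878, plus strand), the liver form, was at 48.7, 41.2, 47.8 and 49.8 CPM in KO and at 6.08, 5.67, 15.8, 61.0, 21.7 and 25.5 CPM in WT replicates 1 to 6. As for the glycogen phosphatase subunits, WT replicate 4 was above the KO livers and the other WT livers below them. The log2 fold change was 1.05 (SE 0.55, edgeR adjusted p = 0.252) and 1.66 without WT replicate 4 (edgeR adjusted p = 0.0162). Pfkfb3, the inducible form with high kinase activity, was at 15.9 to 33.2 CPM in KO and 11.1 to 38.9 CPM in WT (edgeR adjusted p = 0.735).

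Aldoa (chromosome 7, 126795234 to 126800751, minus strand), aldolase A, separated the groups fully. It was at 176, 180.0, 166 and 195 CPM in KO, against a lowest, median and highest of 209, 249.5 and 284 CPM in WT. Every KO liver was below every WT liver, with WT replicate 4 the lowest WT value (log2 fold change -0.47, SE 0.15, edgeR adjusted p = 0.0860, DESeq2 adjusted p = 0.0123). The two-sided exact permutation p of the difference in log2(CPM + 0.5) was 0.00476, the smallest that 210 labelings allow, and 282 of the 13688 genes tested reached it. Groups without overlap were seen in 2 of the 37 genes (5.41%), Aldoa and Pkm, both lower in KO, against 6.90% of all genes tested (3.29% with KO lower). Aldoc, the brain form, was at 4.01 ± 0.812 CPM in KO and 5.83 ± 3.05 CPM in WT.

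The triose steps gave no call. Tpi1, triosephosphate isomerase, was at 205 ± 37.5 CPM in KO and 199 ± 46.2 CPM in WT. Pgk1, phosphoglycerate kinase, was at 35.2 ± 5.41 CPM in KO and 49.0 ± 9.38 CPM in WT (edgeR adjusted p = 0.122, and 0.0347 without WT replicate 4). Pgam1, phosphoglycerate mutase, was at 12.4 ± 1.76 CPM in KO and 15.9 ± 3.61 CPM in WT, and Eno1, enolase 1, at 159 ± 13.6 CPM in KO and 175 ± 38.0 CPM in WT.

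Gapdh, often used as a control gene, was at 45.9 ± 14.0 CPM in KO and 48.8 ± 8.84 CPM in WT, and was the only tested gene of the list with a larger SD of log2(CPM + 0.5) in KO (0.50) than in WT (0.25). Its counts are uncertain. GENCODE M21 holds transcripts of 78 other genes, 75 of them pseudogenes, that match Gapdh over at least 200 bases at 95% identity or more, and 67 of these genes together had 96.1% as many counts as Gapdh itself. Reads shared between such copies may have been lost or divided. The same search found 4 copies each for Pgk1 and Ldha, 3 for Eno1 and 1 each for Gpi1, Tpi1, Pgam1 and Pkm, with at most 3.21% as many counts as their parent gene. The longest matches ran from 310 bases for Tpi1 to 1736 bases for Eno1 (97.7% and 99.5% identity). They had 100% identity over 1255 bases for Pgk1 and 765 bases for Pgam1. Low counts of a copy do not show that the parent gene lost no shared reads.

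At the last step, the fold changes of the pyruvate kinases had opposite signs. Pklr (chromosome 3, 89136142 to 89146784, plus strand), the liver form, was at 23.7, 28.6, 33.4 and 26.0 CPM in KO, against a lowest, median and highest of 11.1, 14.0 and 26.7 CPM in WT. WT replicate 2 alone lay in the KO range (log2 fold change 0.75, SE 0.25, edgeR adjusted p = 0.102). Pkm (chromosome 9, 59656368 to 59679375, plus strand), the form of most other cells, was at 11.4, 9.09, 13.4 and 10.8 CPM in KO and 13.7, 19.1 and 48.7 CPM at the lowest, median and highest in WT. The groups did not overlap, although the gap between 13.4 and 13.7 CPM was narrow (log2 fold change -1.10, SE 0.34, edgeR adjusted p = 0.0851, DESeq2 adjusted p = 0.0223). Exons of Hcn3 on the opposite strand cover 22.0% of Pklr's exon length, and the strand setting of the counts is not given in the sources used here.

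In lactate handling, Ldha, lactate dehydrogenase A, was at 1053 ± 213 CPM in KO and 781 ± 188 CPM in WT (edgeR adjusted p = 0.228). Slc16a1, the monocarboxylate transporter MCT1, was at 120.1 ± 38.3 CPM in KO and 99.0 ± 51.8 CPM in WT. Slc16a3, encoding MCT4, the lactate exporter of glycolytic cells, was at 0.558 ± 0.213 CPM in KO and 1.50 ± 0.858 CPM in WT, from 35 and 119 counts. Its log2 fold change was -1.39 (SE 0.47, edgeR adjusted p = 0.103, and 0.0247 without WT replicate 4).

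Markers of other cell types also differed between livers. The summed level of 6 Kupffer cell markers was 28.9 to 60.0 CPM in KO and 34.3 to 197 CPM in WT, and all 6 had the lower mean in KO. In edgeR with all libraries 3 of the 6 were lower at an unadjusted p under 0.05, against 14.4% of all genes tested, and 0 were called. Without WT replicate 4, edgeR called Clec4f (adjusted p = 0.0280) and Marco (adjusted p = 0.0411) lower, and DESeq2 with all libraries called Clec4f (adjusted p = 0.0380). For this list and the next, the shares of all genes called lower were 10.9% in edgeR without WT replicate 4 and 6.60% in DESeq2. The sum of 7 monocyte and neutrophil markers was 8.91 to 18.5 CPM in KO and 12.4 to 176 CPM in WT, with 6 of 7 lower on average in KO. The monocyte markers did not share this clearly. Ccr2 had the higher mean in KO (2.04 CPM, against 1.34 CPM in WT, log2 fold change 0.61, edgeR adjusted p = 0.281). Ly6c2 had similar means (0.320 CPM in KO, 0.351 CPM in WT) and was at 0 in at least 1 library. Without WT replicate 4, edgeR called S100a8 (adjusted p = 0.0325) and Cxcr2 (adjusted p = 0.0430) lower, and DESeq2 with all libraries called both (adjusted p = 0.0321 and 0.0362). WT replicate 2 had the highest sum of each list and also the highest Pkm, Slc16a3, Hk1, Hk2 and Hk3. Other livers followed it only in part. WT replicate 6 was next in the Kupffer cell sum (136 CPM) and in Hk3 (1.47 CPM), but lowest of WT in Hk2 (0.387 CPM). WT replicate 1 was next in the monocyte and neutrophil sum (40.4 CPM) and lowest of WT in Pkm (13.7 CPM). WT replicate 4 was lowest of WT in both sums (34.3 and 12.4 CPM), in Hk3 (0.544 CPM) and in Slc16a3 (0.612 CPM), but not in Pkm, Hk1 or Hk2. The part of these cells in the values of Pkm, Slc16a3 and the hexokinases was not tested. In bulk tissue, fewer cells of a type and less RNA per cell cannot be told apart. The sums also overlapped between the groups for endothelium (113 to 167 CPM in KO, 93.0 to 187 CPM in WT), stellate cells (150.1 to 181 CPM in KO, 112 to 219.9 CPM in WT) and cholangiocytes (15.4 to 21.7 CPM in KO, 7.27 to 42.6 CPM in WT). Within the endothelial list, Lyve1 did not overlap (4.85 to 6.53 CPM in KO, 10.7 to 51.1 CPM in WT, log2 fold change -1.77, edgeR adjusted p = 0.0642, DESeq2 adjusted p = 0.00212), and Clec4g had the opposite sign (log2 fold change 0.80, edgeR adjusted p = 0.0617, DESeq2 adjusted p = 0.0138). Sums overlapped as well for lymphocyte markers (0.845 to 1.31 CPM in KO, 0.330 to 1.13 CPM in WT), with Cd79a and Ms4a1 at 0 in at least 1 library, and erythroid markers (108 to 309.9 CPM in KO, 69.1 to 267 CPM in WT).

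Ratios of count within a liver, which do not depend on how libraries are scaled, were compared for 6 pairs of opposing or alternative proteins. The pairs were taken from the listed genes, which were chosen with earlier results of these data known. Their p-values were adjusted over these 6 only, and no share over other gene pairs was computed. The pyruvate kinase ratio, Pkm over Pklr, was -1.32 ± 0.25 in KO and 0.46 ± 0.66 in WT on the log2 scale. It lay between -1.65 and -1.06 in KO and between -0.45 and 1.24 in WT, without overlap and with WT replicate 4 the WT liver nearest to KO. The difference was -1.79 (two-sided exact permutation p = 0.00952, adjusted p = 0.0429 over the 6 ratios by Benjamini-Hochberg). Pkm and Pklr alone had unadjusted edgeR p of 0.00648 and 0.0113 with opposite signs, so their ratio is not a separate result.

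The ratio of Ppp1r3c over Ppp1r3b was also higher in KO than in any WT liver. Its log2 values were -0.39 ± 0.37 in KO and -1.58 ± 0.69 in WT, and the ranges (-0.72 to 0.11 in KO, -2.61 to -0.74 in WT) did not overlap, by a narrow margin between KO replicate 3 and WT replicate 4. The difference was 1.19 (two-sided exact permutation p = 0.0143, adjusted p = 0.0429 over the 6 ratios by Benjamini-Hochberg). Both ratio calls were lost when any 1 KO library was left out (adjusted p of 0.0714 to 0.143 in exact permutation tests) and held without any 1 WT library. Leaving out a KO library leaves fewer labelings than leaving out a WT library, which raises the smallest p the test can give. Whether the calls were lost through that or through dependence on single KO livers was not tested. Both differences kept their sign.

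The other 4 ratios were not called. G6pc over Hk2 was 7.89 ± 0.72 in KO and 5.41 ± 2.10 in WT (log2, exact permutation adjusted p = 0.0952). Its Hk2 side is the muscle form and rests on 40 counts in KO and 99 counts in WT. Fbp1 over Pfkl was 4.87 ± 0.47 in KO and 5.58 ± 0.72 in WT (exact permutation adjusted p = 0.143). Gys2 over Pygl was -0.13 ± 0.16 in KO and -0.53 ± 0.37 in WT (exact permutation adjusted p = 0.143). Pck1 over Pklr was 6.37 ± 0.45 in KO and 6.34 ± 1.03 in WT, a difference of 0.023 (exact permutation adjusted p = 0.981).

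**Figure D4:**
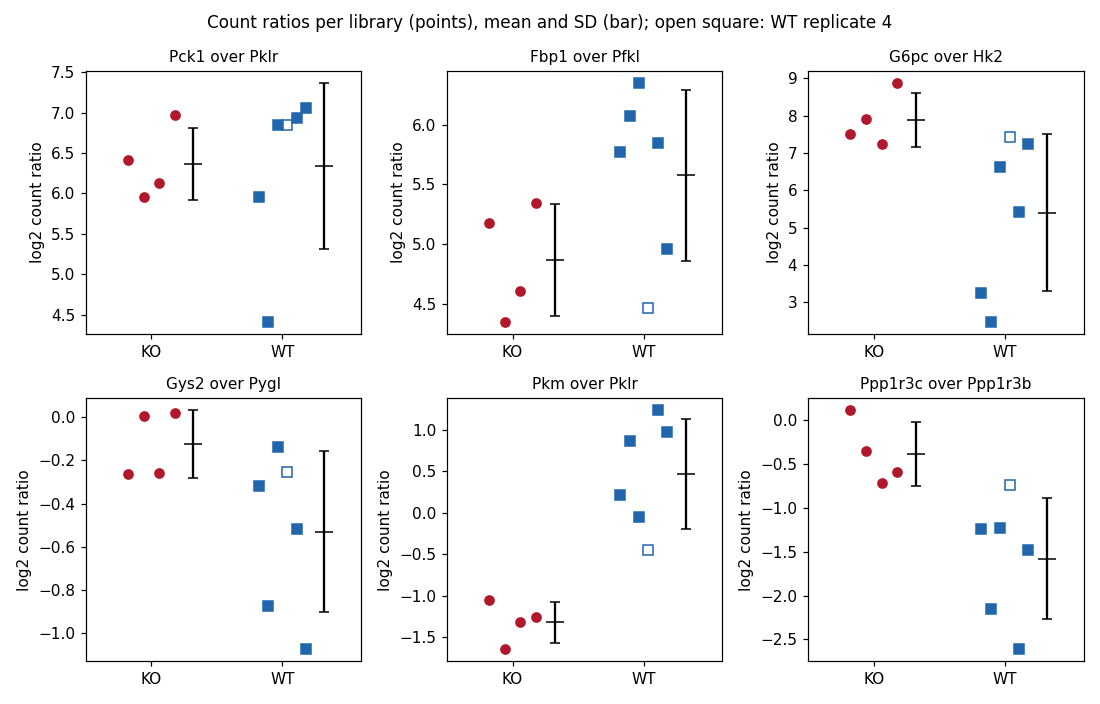
Log2 of the count ratio of 6 gene pairs in each liver (KO, red circles; WT, blue squares, open for WT replicate 4), with the mean and SD of each group as a black bar. Pkm over Pklr lies between -1.65 and -1.06 in KO and between -0.45 and 1.24 in WT, and Ppp1r3c over Ppp1r3b is above its highest WT value of -0.74 in all 4 KO livers.

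The listed genes, like most genes tested, spread more widely among WT than among KO livers. The SD of log2(CPM + 0.5) was larger in WT than in KO for 36 of the 37 tested genes (97.3%), against 80.3% of all genes tested, with a median of 0.23 in KO and 0.52 in WT, where all genes tested had medians of 0.23 in KO and 0.39 in WT. Leaving out WT replicate 4, it was larger in WT for 33 of 37 genes, against 75.2% of all genes tested. The listed genes were chosen with earlier results of these data known, so their share cannot be read as a trait of glucose metabolism genes. Among the other glucose metabolism genes described below, the share with all libraries was 81.4%. The widest WT spreads were those of Ppp1r3c (1.99), G6pc (1.86), Ppp1r3b (1.63), Ppargc1a (1.40), Pfkfb1 (1.26) and Slc2a2 (1.07), each between 0.12 and 0.36 in KO. The narrowest were those of Pcx and Ugp2, each 0.17.

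The same WT livers were not low in all of them. WT replicates 1 and 2 were lowest for G6pc, Pck1 and Pfkfb1, and replicates 2 and 5 for Ppp1r3b and Ppp1r3c. For closeness to KO, WT replicate 4 lay nearer the average KO value than the average of the remaining WT livers in 26 of the 37 genes (70.3%), against 69.5% of all genes tested.

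**Figure D5:**
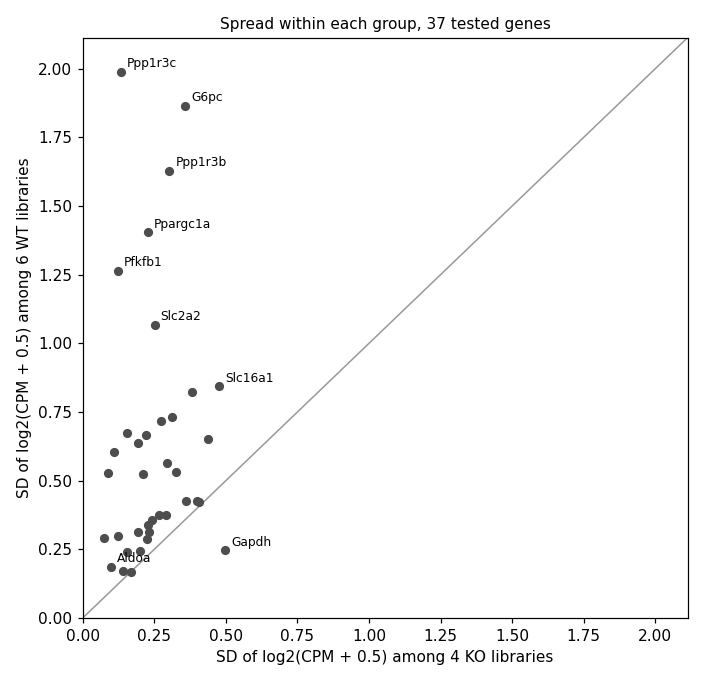
SD of log2(CPM + 0.5) among the 6 WT livers (y axis) against that among the 4 KO livers (x axis) for the 37 tested genes, each a point, with the line of equal spread in grey. Of the points, 36 lie above the line and Gapdh lies below it, and Ppp1r3c has the widest WT spread, 1.99.

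A list of 75 other genes of glucose, glycogen, pyruvate, fructose and galactose metabolism and their regulators was measured beside the 38. Of these, 70 passed the filter, with 0 higher and 0 lower in KO called by edgeR, and 10 higher and 11 lower at an unadjusted p under 0.05 (30.0%, against 26.0% of all genes tested). DESeq2 called 6 higher and 9 lower among the 73 to which it gave an adjusted p (20.5%, against 10.3% of all genes), limma-voom called 3 higher, where it called 1.69% of all genes higher, and edgeR without WT replicate 4 called 8 higher and 9 lower (24.6%, against 21.4% of all genes). The median log2 fold change of the 70 was -0.020. Their SD was larger in WT than in KO for 57 of 70 (81.4%), against 80.3% of all genes tested.

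Pdk4, the kinase that shuts off pyruvate dehydrogenase in fasting, was at 20.9, 45.8, 27.7 and 43.7 CPM in KO. The WT livers were at 419, 906, 197, 33.2, 321 and 55.7 CPM in replicates 1 to 6. WT replicate 4 was again within the KO range, and WT replicate 6 was just above it. The log2 fold change was -3.22 (SE 0.85, edgeR adjusted p = 0.0678, DESeq2 adjusted p = 0.00308, and edgeR adjusted p = 0.00945 without WT replicate 4).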

How the data were processed

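Oligo(dT)-selected RNA of mouse liver was sequenced in 4 KO and 6 WT libraries on an Illumina NovaSeq, per the labels' protocols. The values used are the authors' deposited raw read counts per gene symbol, 1 column per library (0 columns were left out). The tools named in the submitters' processing notes are STAR, HTSeq and DESeq2, and the build is mm10. How each was run, on which annotation and with which strandedness, is not given in the sources used here.

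Groups were compared with edgeR 4.0.16 in R 4.3.3, by its quasi-likelihood test after TMM scaling and filterByExpr, with a robust prior and without covariates, on 13688 genes holding 99.8% of counts, with Benjamini-Hochberg adjustment and calls under 0.05. The SE is the log2 fold change over the square root of F. CPM used TMM-adjusted totals. TPM used GENCODE M21 exon lengths, found for 96.6% of symbols. The same code was tested on simulated data. Single values were compared by a two-sided exact permutation test over 210 labelings, on log2(CPM + 0.5) or on the log2 ratio of counts + 0.5. Libraries of a group differed by a chi-square per degree of freedom of 20.8 to 169, so none was counted as a copy of another. Counts of few reads carry counting error as well as the spread shown.

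Results were recomputed with RLE or upper-quartile scaling, without the filter or with one of 1 CPM in 4 libraries, with DESeq2 1.42.0, with limma-voom (limma 3.58.1) with or without sample weights, with a block for replicate number, and without each library in turn. Every listed gene is named. Values of each library were to be given for the rate-setting steps, called genes and genes at the smallest permutation p, and of the other genes Pdk4 and any called. Some genes are not reported here. Ppp1r3b, Ppp1r3c, Ppp1r3g, Gbe1, Khk, Creb3l3, Pfkfb1 and Pkm were given in the same detail after their values were seen. The members and lists were chosen with earlier results of these data known.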

Additional observations from a re-analysis of the deposited data

Results flagged for a closer look

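Of 90 groups of values looked at (the listed genes, Pdk4 and the 6 ratios, in KO and in WT), 8 held a library set apart from the rest by a gap large for the group's range. For independent, normally distributed values chance gives about 1 such group in 20, and the rate for these CPM values was not tested. WT replicate 4 was the high library in 3 of them: Ppp1r3c (48.3 CPM, the other WT livers 0.529 to 7.03), Ppp1r3b (80.8 CPM, the others 2.50 to 18.6) and Pfkfb1 (61.0 CPM, the others 5.67 to 25.5). For these genes its level was above that of every KO liver. WT replicate 2 was the high library for Gckr (382 CPM, the others 186 to 254) and Hk3 (3.33 CPM, the others 0.544 to 1.47). WT replicate 5 was high for Ppargc1a (27.3 CPM, the others 0.991 to 8.85). WT replicate 1 was low for Gpi1 (85.5 CPM, the others 129 to 152). In KO, replicate 2 was low for Hk1 (1.00 CPM, the others 2.04 to 2.23).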

How the results depend on the processing

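Over 18 alternatives for each of the 37 tested genes, 618 of 666 fold changes kept their direction and their side of the threshold, 27 passed it and 21 turned in sign. With one library left out, the log2 fold change ran from -0.22 to 0.098 for Gapdh, from -0.56 to 0.052 for Hk3, from -0.024 to 0.50 for Pfkfb3, from -0.66 to 0.33 for Ppargc1a, from -0.20 to 0.047 for Pygl, from -0.16 to 0.19 for Slc37a4 and from -0.058 to 0.12 for Tpi1. Limma-voom gave 0.27 for Ppargc1a and 0.10 for Slc37a4, sample weights gave 0.32 for Ppargc1a and 0.0066 for Pygl, and upper-quartile scaling gave 0.022 for Slc37a4. The cause was not tested.

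Listed genes called higher and lower in KO numbered 0 and 6 with DESeq2, 1 and 0 with limma-voom, 4 and 6 with sample weights, and 0 to 4 and 0 to 7 with one library left out, the highest without WT replicate 4. Among the other glucose genes these counts were 6 and 9 with DESeq2, 3 and 0 with limma-voom, 9 and 9 with sample weights, and 0 to 8 and 0 to 9 with one library left out. Over all genes tested, 77 were higher and 105 lower with all libraries, 579 and 1045 with DESeq2, 231 and 87 with limma-voom (72.6% higher, against 42.3%), 1406 and 1223 with sample weights, and 0 to 1420 and 0 to 1473 with one library left out. The ratio of Pkm over Pklr differed by -1.97 to -1.63 with one library left out, Ppp1r3c over Ppp1r3b by 0.98 to 1.36 and Pck1 over Pklr by -0.36 to 0.17.

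Libraries of both groups are numbered 1 to 4, but same-numbered livers did not deviate together (correlations of -0.029 to 0.18, 1 of 4 over 0.1), and 2 of 4 KO livers correlated best with their own number. With the replicate block, 0 genes were higher and 1 lower over all genes tested, 0 listed genes were called, and the log2 fold change was 0.44 for Ppargc1a, 0.23 for Pygl, 0.30 for Slc37a4 and -0.087 for Slc16a1. Depth limits Hk1, Hk2, Hk3, Ppp1r3g and Slc16a3, whose counts were at most 347 over all libraries.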

Other observations

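Beyond the genes described above, other steps of sugar and pyruvate metabolism are given for some of the genes DESeq2 called, chosen after their values were seen. In KO livers Pdk2, another pyruvate dehydrogenase kinase, was at 29.7 ± 3.63 CPM and in WT livers at 12.1 ± 7.25 CPM (log2 fold change 1.29, DESeq2 adjusted p = 0.00585, edgeR adjusted p = 0.0579), opposite in sign to Pdk4. Slc2a9, a urate and sugar transporter, was at 10.2 ± 0.982 CPM in KO and 5.38 ± 1.54 CPM in WT, without overlap (DESeq2 adjusted p = 0.00318, edgeR adjusted p = 0.0534). Slc2a1, the glucose transporter GLUT1, was at 8.94 ± 2.27 CPM in KO and 18.6 ± 7.53 CPM in WT (DESeq2 adjusted p = 0.0172, edgeR adjusted p = 0.0762). Phka1, a regulatory subunit of phosphorylase kinase, was at 8.61 ± 0.627 CPM in KO and 16.3 ± 4.62 CPM in WT, also without overlap (DESeq2 adjusted p = 0.00429, edgeR adjusted p = 0.0549). Pck2, the mitochondrial carboxykinase, was at 2.07 to 3.47 CPM in KO and 1.43 to 22.3 CPM in WT, and WT replicates 3 and 4 were as low as KO (DESeq2 adjusted p = 0.0149, edgeR adjusted p = 0.108).

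Among regulators, Sik1, a kinase that restrains the gluconeogenic co-activator Crtc2, was at 195 ± 48.7 CPM in KO and 641 ± 332 CPM in WT (DESeq2 adjusted p = 7.48e-04, edgeR adjusted p = 0.0550), and WT replicate 4, at 180.1 CPM, lay in the KO range. Onecut1, a hepatocyte transcription factor, was at 6.73 ± 2.49 CPM in KO and 1.56 ± 1.55 CPM in WT (DESeq2 adjusted p = 0.00623, edgeR adjusted p = 0.0659). Foxo1, the insulin-restrained activator of G6pc and Pck1, was at 15.3 ± 6.61 CPM in KO and 30.9 ± 11.4 CPM in WT (DESeq2 adjusted p = 0.0361, edgeR adjusted p = 0.0982), while G6pc and Pck1 had their higher means in KO.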
